A study of Mus musculus with 36 samples.

Results

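The 10 genes described here, of 55487 genes in the count table, act in the FoxO, insulin and mTOR pathways. They were listed by name, with earlier results of these data known. The list holds the transcription factors Foxo1 and Foxo3, the mTORC1 brakes Ddit4, Sesn1 and Deptor, the atrophy ubiquitin ligases Fbxo32 and Trim63, and the insulin signalling genes Irs1, Irs2 and Pik3r1. Each listed gene matched 1 row of the table. Expression was measured by RNA-seq in 36 libraries of murine embryonic fibroblasts (MEFs), primary cells grown from mid-gestation mouse embryos after removal of head and organs. The MEFs were treated for 5 h with solvent (vehicle) or with 1 µM dexamethasone (Dex), a synthetic glucocorticoid. Run 1 held the 24 libraries of GRwt/wt, GRD/D, GRD+L/D+L and GRko/ko, and run 2 held the 12 libraries of GRL/L and of GRwt/wt replicates 4 to 6, with 3 libraries per genotype, run and treatment. GRD carries a point mutation at the dimer interface of the DNA-binding domain of the glucocorticoid receptor (GR), GRL carries a point mutation in its ligand-binding domain, GRD+L carries both, and GRko is a null allele. The mutations are homozygous in every cell of the embryo, so the MEFs differ in GR throughout development and not just during treatment. The labels give the strain as FVB/NJ for every library, while the methods describe the GR null mice as 129 Sv, so in GRko/ko the effect of the allele and of the strain cannot be told apart.

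Insulin and IGF-1 signal through the adaptor proteins Irs1 and Irs2 to the lipid kinase PI3K, whose main regulatory subunit is encoded by Pik3r1, and from there to Akt. Akt keeps FoxO transcription factors out of the nucleus and, through the small GTPase Rheb, switches on mTORC1, the kinase complex that drives protein synthesis. Glucocorticoids oppose insulin in muscle, fat and liver, and in muscle they are known to raise Ddit4, the FoxO genes and the ligases atrogin-1 (Fbxo32) and MuRF1 (Trim63), which mark muscle proteins for degradation.

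Positions are given on GRCm38 (mm10) from the GENCODE annotation. Foxo1 spans chr3:52268336-52353221 (plus strand) and Foxo3 chr10:42181841-42276755 (minus), near Sesn1 at chr10:41809935-41908424 (plus). Ddit4 lies at chr10:59949669-59951834 (minus). Deptor (chr15:55112317-55259271, plus) and Fbxo32 (chr15:58175879-58214932, minus) share a chromosome, and Trim63 lies at chr4:134315120-134329629 (plus). Irs1 is at chr1:82233101-82291416, Irs2 at chr8:10984681-11008458 and Pik3r1 at chr13:101680563-101768217, all on the minus strand.

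Libraries held 15280166 to 28662608 counts and were deeper in run 2 (median 24827607.5) than in run 1 (median 16579210.5). Nr3c1, the gene that encodes the GR, was at 15.9 to 20.4 CPM (counts scaled to the library size after TMM normalization) in the 6 GRko/ko libraries, below the 47.8 to 98.9 CPM of the other run 1 libraries. The 10 fibroblast markers summed to 20120 to 32435 CPM. Libraries of GRwt/wt in run 1 and of GRD/D expressed Xist at 165 to 305 CPM and Ddx3y at 0.921 CPM at most, whereas all other libraries had Xist at 14.1 CPM or less and Ddx3y at 67.1 CPM or more. Sex was thus uniform within each genotype and run, and GRwt/wt differed in sex from GRD+L/D+L and GRko/ko in run 1, and between the runs. Whether the 3 replicates of a group came from separate embryos cannot be told from the counts. If they did not, the p-values below do not measure the spread between embryos. Summed levels of 12 skeletal muscle markers were 376 to 804 CPM in run 1 and 18.9 to 34.4 CPM in run 2. Most of it came from Acta1 and Des. Pax7, Myf5, Myod1, Ckm and Mymk had at most 3, 1, 5, 3 and 9 counts in any library. Myog, Myh8, Tnnt3, Actc1 and Myh3 reached 16, 22, 33, 56 and 67 counts. None of the 7 muscle markers tested was called under Dex in any genotype. Markers of other cell types did move. Of the 10 macrophage markers, 2 rose and 5 fell in GRL/L, 3 rose and 1 fell in GRwt/wt of run 2, 1 rose in GRwt/wt of run 1 and 1 fell in GRD/D. Their sum was 847 to 1008 CPM with vehicle and 717 to 906 CPM with Dex in GRL/L, and 477 to 499 and 448 to 497 CPM in GRwt/wt of run 2. Of the 10 fibroblast markers, 1 rose and 1 fell in GRwt/wt of run 1, 2 rose and 1 fell in run 2, 2 rose in GRD/D and 1 fell in GRL/L. Of the 4 epithelial markers tested, 3 fell in GRwt/wt of run 2 and 1 in run 1, and of the 4 endothelial markers 1 rose in GRwt/wt of run 1, 1 fell in run 2 and 2 rose in GRL/L. The 6 epithelial markers summed to 0.857 to 49.1 CPM and the 6 endothelial markers to 4.88 to 19.3 CPM over all libraries. The part of these cells in the responses of the members was not tested. The 8 adipocyte markers, led by Fabp4, summed to 9.86 to 25.8 CPM in run 1 and 37.0 to 124 CPM in run 2, and in bulk RNA fewer cells of a type and less RNA per cell cannot be told apart. In 3 groups, 1 library stood apart from both other replicates, with a mean chi-square over genes at least 2.5 times that between the others, a limit set after the values had been seen. They were Dex replicate 4 of GRwt/wt in run 2 (17.9 and 21.4 times the sampling noise, against 1.83), vehicle replicate 6 of the same genotype and run (6.28 and 6.31, against 2.20) and Dex replicate 3 of GRko/ko (6.64 and 8.32, against 2.24). The pair farthest apart, at 29.4, was vehicle replicates 2 and 3 of GRD/D.

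Promoter windows from 250 bases before to 50 bases after the transcription start, taken from RefSeq on GRCm38, were held for 8 of the members in 10 windows, but not for Deptor and Fbxo32. They were searched on both strands for the GR hexamer AGAACA (complement TGTTCT), for the FoxO site GTAAACA (complement TGTTTAC), and for an inverted repeat of the GR site, GAACANNNTGTTC, which overlaps the hexamer. The hexamer was present in 18.9% of all 32544 windows and the FoxO site in 3.66%. An inverted repeat of the whole hexamer, AGAACA and TGTTCT with a spacer of 3 bases, was present in 3 windows (0.00922%), none of them a member's. Trim63 was the only member whose windows held the hexamer, and Trim63 and Sesn1 were the only members with a FoxO site. The Trim63 stretch on chr4:134314870-134315119 (plus strand, the 250 bases upstream of the start) is shown because it carries both motifs side by side. Capitals mark the inverted GR repeat and the FoxO site that directly follows its hexamer:

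Trim63: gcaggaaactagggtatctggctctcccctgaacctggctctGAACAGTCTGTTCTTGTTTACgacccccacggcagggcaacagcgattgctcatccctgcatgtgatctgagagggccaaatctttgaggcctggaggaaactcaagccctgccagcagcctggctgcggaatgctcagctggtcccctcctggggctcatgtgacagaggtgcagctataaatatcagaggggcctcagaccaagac

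The repeat begins 208 bases upstream of the start, and 18 of the 32544 windows (0.0553%) held it. A GR hexamer directly followed by a FoxO site occurred in 1 window (0.00307%), that of Trim63. The 5-base repeat and the side by side arrangement were chosen after the Trim63 sequence had been seen. In Sesn1, the FoxO site lies at chr10:41810596-41810602 (plus strand), just after the start, and is shown in capitals within the stretch chr10:41810585-41810614 for comparison:

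Sesn1: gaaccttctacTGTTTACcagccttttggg

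These matches describe letters in the windows and do not show binding. The Dex responses of both genes are given below.

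Dex changed most of these genes in wild-type MEFs, and Irs2, Pik3r1, Deptor and Foxo3 rose while Fbxo32 fell in both runs. Genes were called at an adjusted p of at most 0.05 in the quasi-likelihood test of edgeR, adjusted by Benjamini-Hochberg over the 15489 genes that passed the filter on low counts. All 10 members passed that filter, Trim63 through its run 2 libraries. Because the list was made with earlier results known, the shares of all genes are set beside the counts as a description. In GRwt/wt of run 1, 6 members were called (5 up, 1 down), against 13.9% of all genes tested. They include Trim63, which had 0 to 5 counts per library there. Its call was lost in 3 of the 6 fits that left out 1 library. In GRwt/wt of run 2 all 10 members were called (7 up, 3 down), against 31.6%. Without Dex replicate 4 of run 2, which stood apart, all 10 were still called there, with log2 fold changes of 2.33 for Trim63 (2.40 with it), 1.48 for Sesn1 (1.47), 1.37 for Irs2 (1.29), 1.17 for Deptor (1.07), 0.95 for Pik3r1 (0.89), 0.81 for Foxo3 (0.77), 0.64 for Ddit4 (0.71), −0.41 for Foxo1 (−0.44), −0.37 for Fbxo32 (−0.43) and −0.32 for Irs1 (−0.40). Without vehicle replicate 6 all 10 were called as well. In GRL/L, 9 were called (7 up, 2 down), against 19.1%. GRD/D had 4 called members (1 up, 3 down), against 11.9%, and GRD+L/D+L had 2 (1 up, 1 down), against 5.00%. Requiring also a log2 fold change of at least 1 in size left 2 members in GRwt/wt of run 1 (background 2.01%), Trim63 and Irs2. It left 4 in GRwt/wt of run 2 (4.49%), 2 in GRL/L (2.56%), 0 in GRD/D (0.981%) and 0 in GRD+L/D+L (0.400%).

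In GRko/ko, no member was called by edgeR, against 0% of all genes. Its smallest adjusted p over all genes was 0.356, with 859 genes (5.55%) at an unadjusted p under 0.05, none of them a member, and DESeq2 called 1 gene, also not a member. The 95% confidence intervals of the log2 fold change in GRko/ko lay between −0.31 (Irs1) and 0.26 (Fbxo32) for 8 of the members. They were −0.08 to 0.56 for Deptor and −1.06 to 1.32 for Trim63, which had 2 to 6 counts per library. The median log2 fold change of the 10 members was 0.31 in GRwt/wt of run 1, 0.83 in GRwt/wt of run 2, 0.68 in GRL/L, −0.06 in GRD/D, −0.10 in GRD+L/D+L and −0.0048 in GRko/ko, while the median over all genes tested lay between −0.011 and −0.00027.

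**Figure D1:**
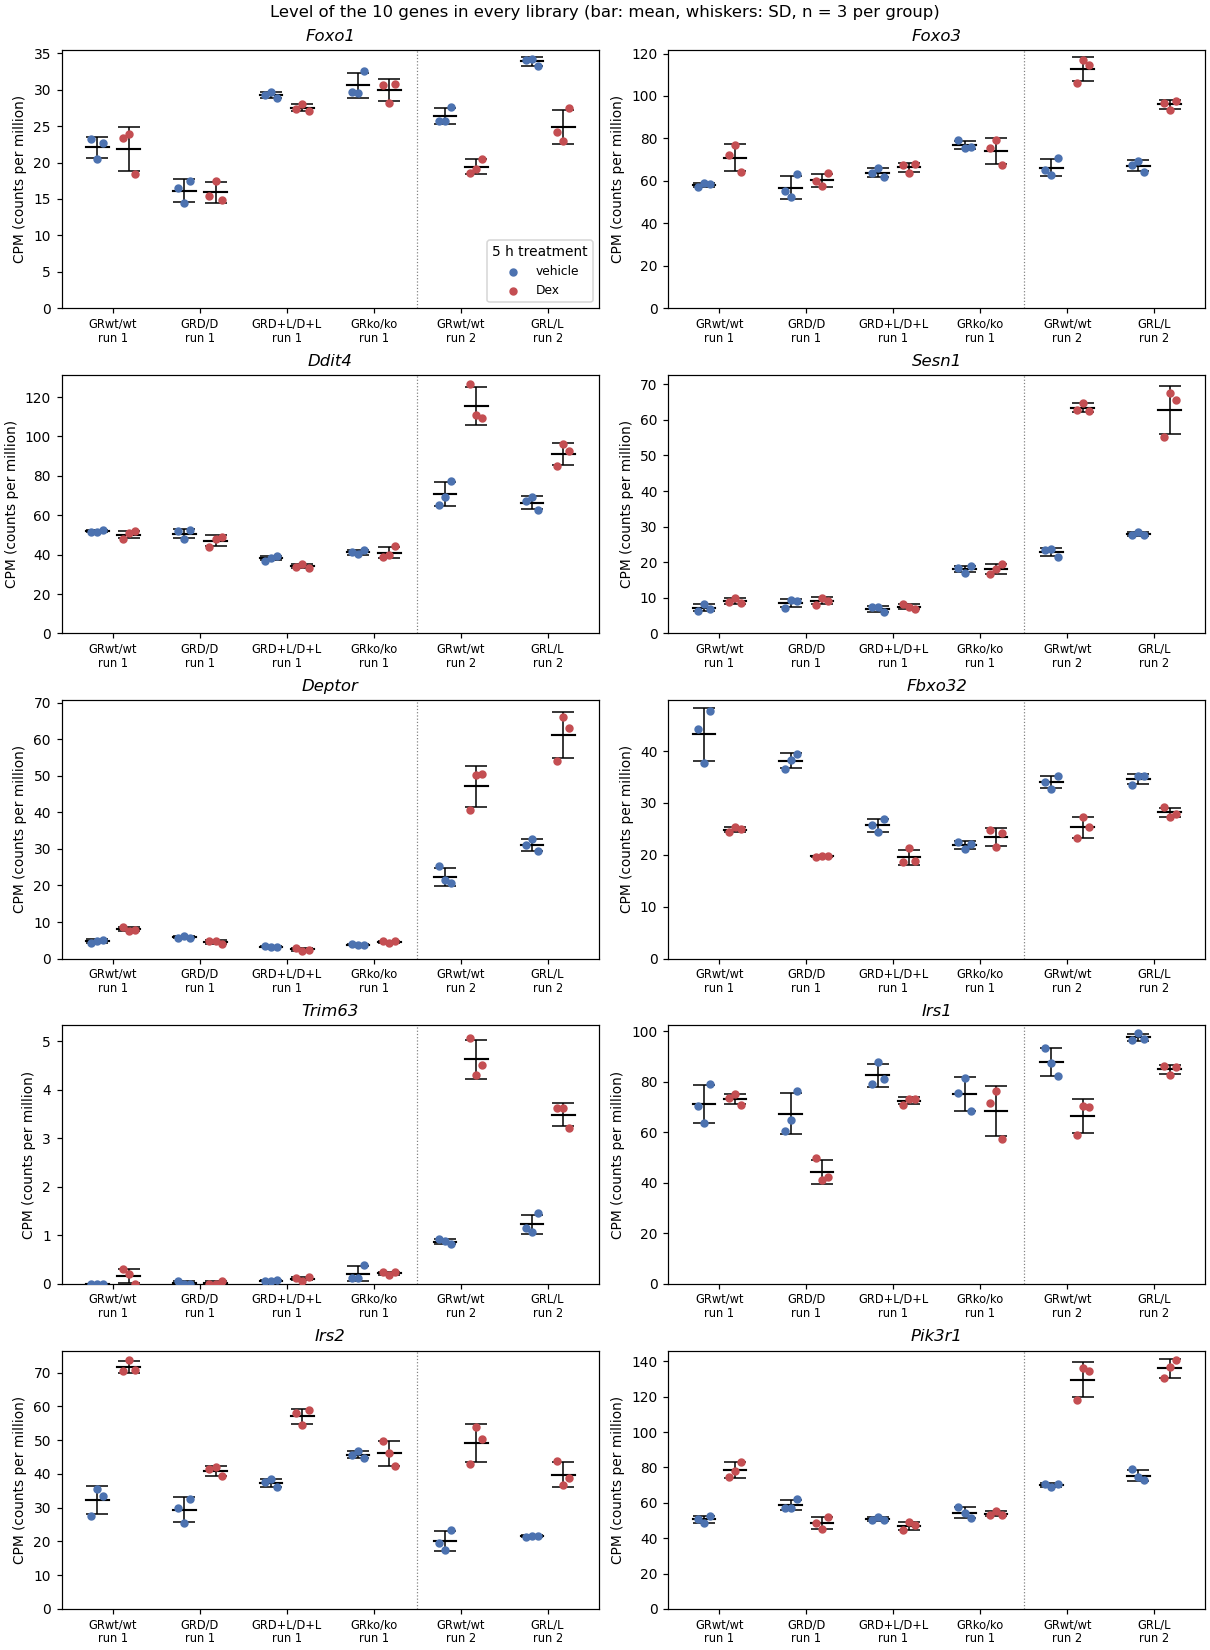
Level of each of the 10 genes in CPM (vertical axes, linear from 0) in all 36 libraries, by genotype and run, with vehicle in blue and Dex in red; bars are means and whiskers SDs of 3 libraries, and the dotted line separates the runs. The Dex libraries of Pik3r1 lie above the vehicle libraries in GRwt/wt of both runs and in GRL/L, below them in GRD/D, and among them in GRko/ko.

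Foxo1 and Foxo3, transcription factors that insulin signalling holds in check, moved in opposite directions in run 2 and differed between the runs. In run 2, Foxo1 was at 25.7, 25.7 and 27.7 CPM with vehicle and at 18.5, 19.2 and 20.5 CPM with Dex in GRwt/wt. In GRL/L it was at 34.1, 34.3 and 33.2 CPM with vehicle and at 24.2, 23.0 and 27.4 CPM with Dex. The Dex libraries did not overlap the vehicle libraries in either genotype. Foxo1 fell by 0.44 on the log2 scale in both (SE 0.07 each, adjusted p = 9.54e-06 in GRwt/wt and 6.77e-06 in GRL/L, edgeR). In run 1 no change of Foxo1 was called. GRwt/wt had 23.2, 20.5 and 22.6 CPM with vehicle and 23.3, 23.9 and 18.4 CPM with Dex, overlapping groups with a log2 fold change of −0.02 (95% interval −0.19 to 0.15). The other run 1 genotypes had log2 fold changes of −0.09 to −0.01, and none was called. In GRD+L/D+L the Dex libraries (27.1 to 28.0 CPM) still lay below those with vehicle (28.9 to 29.7 CPM).

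Foxo3 rose in GRwt/wt of both runs and in GRL/L. The run 1 GRwt/wt libraries went from 57.3, 59.1 and 58.4 CPM to 72.1, 77.0 and 64.0 CPM, a log2 fold change of 0.29 (SE 0.07, adjusted p = 0.00191, edgeR). Those of run 2 went from 65.3, 62.6 and 70.6 CPM to 106, 117 and 115 CPM (log2 fold change 0.77, SE 0.06, adjusted p = 6.02e-13). In GRL/L it went from 67.7, 69.6 and 64.3 CPM to 96.7, 93.4 and 97.8 CPM (0.51, SE 0.06, adjusted p = 1.97e-08). Dex and vehicle libraries were apart in all of these groups. They overlapped in GRD/D (52.4 to 63.1 CPM with vehicle, 57.6 to 63.6 CPM with Dex), GRD+L/D+L (61.6 to 65.9 and 63.8 to 67.7 CPM) and GRko/ko (75.5 to 79.3 and 67.5 to 79.3 CPM). The 95% intervals there were −0.05 to 0.22, −0.08 to 0.19 and −0.18 to 0.08.

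Ddit4 (also called REDD1), which inhibits mTORC1 through the TSC complex, rose in run 2 and not in run 1. GRwt/wt of run 2 had 65.4, 69.2 and 77.6 CPM with vehicle and 126, 111 and 109 CPM with Dex, a log2 fold change of 0.71 (SE 0.06, adjusted p = 2.21e-12, edgeR). GRL/L had 67.2, 69.1 and 62.7 CPM with vehicle and 84.9, 96.1 and 92.4 CPM with Dex (0.46, SE 0.06, adjusted p = 1.33e-07). In both genotypes each Dex library was above each vehicle library. GRwt/wt of run 1 had 51.7, 51.7 and 52.7 CPM with vehicle and 48.0, 50.8 and 51.8 CPM with Dex (−0.05, 95% interval −0.19 to 0.08). The upper end of that interval is below the rise measured in the same genotype in run 2. In GRD/D, GRD+L/D+L and GRko/ko the log2 fold changes were −0.11, −0.15 and −0.01, and none was called, although the 33.3 to 35.5 CPM of the GRD+L/D+L Dex libraries lay below their 37.0 to 39.1 CPM with vehicle. Per kilobase of exon, Ddit4 was the highest of the members in vehicle GRwt/wt, at 29.6 CPM per kilobase in run 1 and 40.3 in run 2, and the lowest were Trim63, with no read in run 1 and 0.306 in run 2, and Deptor, at 0.539 and 2.52.

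Sesn1 encodes a sestrin, a stress protein that restrains mTORC1 through the amino acid sensing GATOR complexes. It rose in run 2 GRwt/wt from 23.3, 23.8 and 21.5 CPM to 62.9, 64.8 and 62.6 CPM, a log2 fold change of 1.47 (SE 0.07, adjusted p = 1.42e-18, edgeR). GRL/L went from 27.6, 28.6 and 27.7 CPM to 55.2, 67.4 and 65.7 CPM (1.17, SE 0.07, adjusted p = 1.4e-15). The vehicle level of GRwt/wt in run 2 was 3.19 times that of run 1. Run 1 differed: Sesn1 in GRwt/wt was at 6.36, 8.29 and 6.88 CPM with vehicle and at 8.69, 10.0 and 8.47 CPM with Dex, so the groups did not overlap, but the log2 fold change of 0.34 (95% interval 0.09 to 0.59) was not called (adjusted p = 0.0648). That call turned with the processing, with an adjusted p of 0.0492 in DESeq2 and of 0.0273 in edgeR without vehicle replicate 2. The log2 fold changes in GRD/D, GRD+L/D+L and GRko/ko were 0.09, 0.12 and −0.0018, with overlapping groups and no call.

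Deptor, a subunit that binds and inhibits mTOR itself, rose in wild-type MEFs of both runs. It went from 4.28, 4.86 and 5.19 CPM to 8.75, 7.59 and 7.80 CPM in run 1 (log2 fold change 0.75, SE 0.14, adjusted p = 1.2e-04, edgeR). In run 2 it went from 25.2, 21.4 and 20.5 CPM to 40.6, 50.1 and 50.6 CPM (1.07, SE 0.08, adjusted p = 5.59e-14). In GRL/L it went from 31.2, 32.6 and 29.3 CPM to 54.0, 66.1 and 63.1 CPM (0.98, SE 0.07, adjusted p = 4.24e-13). All Dex libraries lay above their vehicle libraries in these groups. In GRD/D they lay below, at 4.69, 4.88 and 3.95 CPM with Dex against 5.69, 6.21 and 5.75 CPM with vehicle, and in GRD+L/D+L at 2.93, 2.17 and 2.46 CPM against 3.48, 3.07 and 3.27 CPM. The log2 fold changes there were −0.39 (95% interval −0.69 to −0.08, adjusted p = 0.0887) and −0.38 (−0.77 to 0.02, adjusted p = 0.381), and neither was called. With run 1 fitted alone, the GRD/D value passed (adjusted p = 0.0352). In GRko/ko the groups did not overlap either, at 4.70, 4.13 and 4.79 CPM with Dex above 3.94, 3.80 and 3.79 CPM with vehicle. The log2 fold change there was 0.24 (95% interval −0.08 to 0.56) and was not called.

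Fbxo32 fell under Dex in all genotypes that retain a GR protein. The GRwt/wt libraries of run 1 went from 44.2, 37.7 and 47.7 CPM to 24.4, 25.3 and 24.9 CPM, a log2 fold change of −0.80 (SE 0.07, adjusted p = 2.22e-11, edgeR). In GRD/D it went from 36.6, 38.3 and 39.4 CPM to 19.7, 19.7 and 19.8 CPM (−0.95, SE 0.07, adjusted p = 2.05e-12). In GRD+L/D+L it went from 25.8, 24.4 and 26.9 CPM to 18.5, 21.3 and 18.7 CPM (−0.40, SE 0.08, adjusted p = 5.48e-04). Fbxo32 and Irs2, which rose, were the 2 members called with the same sign in all 5 sets with a GR protein. The share of all genes called in this way was not counted, so this is a description. In run 2, GRwt/wt went from 34.1, 32.8 and 35.2 CPM to 23.2, 27.3 and 25.4 CPM (−0.43, SE 0.06, adjusted p = 1.61e-06). GRL/L went from 33.4, 35.2 and 35.1 CPM to 29.2, 27.4 and 27.9 CPM (−0.30, SE 0.06, adjusted p = 5.16e-04). The groups did not overlap in any of the 5 sets. In GRko/ko they overlapped, at 22.4, 21.0 and 22.1 CPM with vehicle and 24.8, 21.5 and 24.1 CPM with Dex (0.11, 95% interval −0.05 to 0.26).

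Trim63 was near the limit of detection in run 1 and rose steeply in run 2. GRwt/wt libraries of run 2 had 26, 24 and 22 counts with vehicle and 128, 113 and 120 counts with Dex, or 0.870 ± 0.050 and 4.63 ± 0.40 CPM (SD, n = 3). In GRL/L it had 34, 34 and 44 counts with vehicle and 97, 85 and 91 counts with Dex, or 1.23 ± 0.20 and 3.48 ± 0.23 CPM. The log2 fold changes were 2.40 (SE 0.21, adjusted p = 1.45e-11, edgeR) and 1.50 (SE 0.20, adjusted p = 3.17e-07), and no libraries overlapped. In GRwt/wt of run 1, the vehicle libraries had 0, 0 and 0 counts and the Dex libraries 5, 3 and 0, of 47791407 and 52818824 counts in all. With the vehicle group set to a floor of 3 counts, the observed Dex counts were 2.41-fold higher for the depth sequenced. This ratio leaves out the counting error of the Dex counts, so it is not a lower bound. edgeR called it (adjusted p = 0.0159), and the call was lost without Dex replicate 1, vehicle replicate 1 or vehicle replicate 3 (adjusted p from 0.0514 to 0.132). The other run 1 libraries had 0 to 6 counts, and no Dex response was called there.

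Irs1 and Irs2, the adaptors that link the insulin receptor to PI3K, responded differently. Irs2 rose in each genotype other than GRko/ko. It went from 27.5, 35.6 and 33.5 CPM to 70.6, 73.7 and 70.7 CPM in GRwt/wt of run 1 (log2 fold change 1.16, SE 0.09, adjusted p = 1.13e-12, edgeR) and from 19.5, 17.5 and 23.4 CPM to 42.9, 53.9 and 50.4 CPM in run 2 (1.29, SE 0.09, adjusted p = 1.36e-14). In GRL/L it went from 21.3, 21.7 and 21.6 CPM to 43.8, 36.7 and 38.9 CPM (0.89, SE 0.09, adjusted p = 3.8e-10). The rise was smaller in the mutants of the DNA-binding domain. GRD/D went from 30.0, 25.4 and 32.7 CPM to 41.4, 42.2 and 39.3 CPM (0.48, SE 0.09, adjusted p = 3.88e-04), and GRD+L/D+L from 37.5, 38.4 and 36.1 CPM to 57.9, 54.5 and 58.8 CPM (0.61, SE 0.09, adjusted p = 7.52e-06). Every Dex library was above every vehicle library in these 5 sets. GRko/ko had 45.6, 46.8 and 44.8 CPM with vehicle and 49.6, 46.2 and 42.4 CPM with Dex (0.01, 95% interval −0.17 to 0.19).

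Irs1 fell in GRD/D, from 60.6, 64.9 and 76.5 CPM to 49.7, 41.0 and 42.2 CPM (log2 fold change −0.61, SE 0.09, adjusted p = 8.89e-06, edgeR), and in GRwt/wt of run 2, from 93.3, 87.4 and 82.4 CPM to 58.8, 70.4 and 70.0 CPM (−0.40, SE 0.08, adjusted p = 2.18e-04). Both changes left no overlap between Dex and vehicle. Irs1 in GRwt/wt of run 1 was at 70.5, 63.8 and 79.1 CPM with vehicle and at 73.5, 75.0 and 70.9 CPM with Dex (0.04, 95% interval −0.14 to 0.22). GRL/L (−0.20, 95% interval −0.37 to −0.03), GRD+L/D+L (−0.19, −0.37 to −0.01) and GRko/ko (−0.13, −0.31 to 0.04) were not called. Even so, the GRL/L libraries did not overlap (96.6 to 99.3 CPM with vehicle, 82.8 to 86.1 CPM with Dex). Nor did those of GRD+L/D+L (78.9 to 87.7 and 70.7 to 73.3 CPM), while those of GRko/ko did. For GRL/L the adjusted p was 0.0845 and fell to 0.0369 with run 2 fitted alone. Of the 13 alternatives for GRL/L, 2 called the fall of Irs1, and the log2 fold change lay from −0.21 to −0.18 in all of them. An antisense gene, Gm9747, overlaps 2822 of the 9144 exon bases of Irs1, and without the strand setting of the counting its reads cannot be told apart from those of Irs1.

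Pik3r1 rose in wild type and in GRL/L and fell in GRD/D. It went from 50.7, 48.8 and 52.8 CPM to 74.5, 78.2 and 83.3 CPM in GRwt/wt of run 1 (log2 fold change 0.63, SE 0.06, adjusted p = 1.21e-10, edgeR), and in run 2 from 70.7, 68.8 and 70.9 CPM to 118, 136 and 134 CPM (0.89, SE 0.05, adjusted p = 3.65e-16). GRL/L went from 79.1, 74.5 and 72.8 CPM to 130, 137 and 141 CPM (0.85, SE 0.05, adjusted p = 2.13e-15). GRD/D went the other way, from 57.3, 57.3 and 62.1 CPM to 48.4, 45.0 and 51.9 CPM (−0.28, SE 0.06, adjusted p = 0.00107). The groups were apart in all of these sets. GRD+L/D+L had 50.4, 52.2 and 50.4 CPM with vehicle and 44.8, 49.2 and 47.3 CPM with Dex, which did not overlap either, but the log2 fold change of −0.11 (95% interval −0.24 to 0.01) was not called. GRko/ko was at 51.4 to 57.6 CPM with vehicle and 53.0 to 55.5 CPM with Dex (−0.02, 95% interval −0.14 to 0.10).

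**Figure D2:**
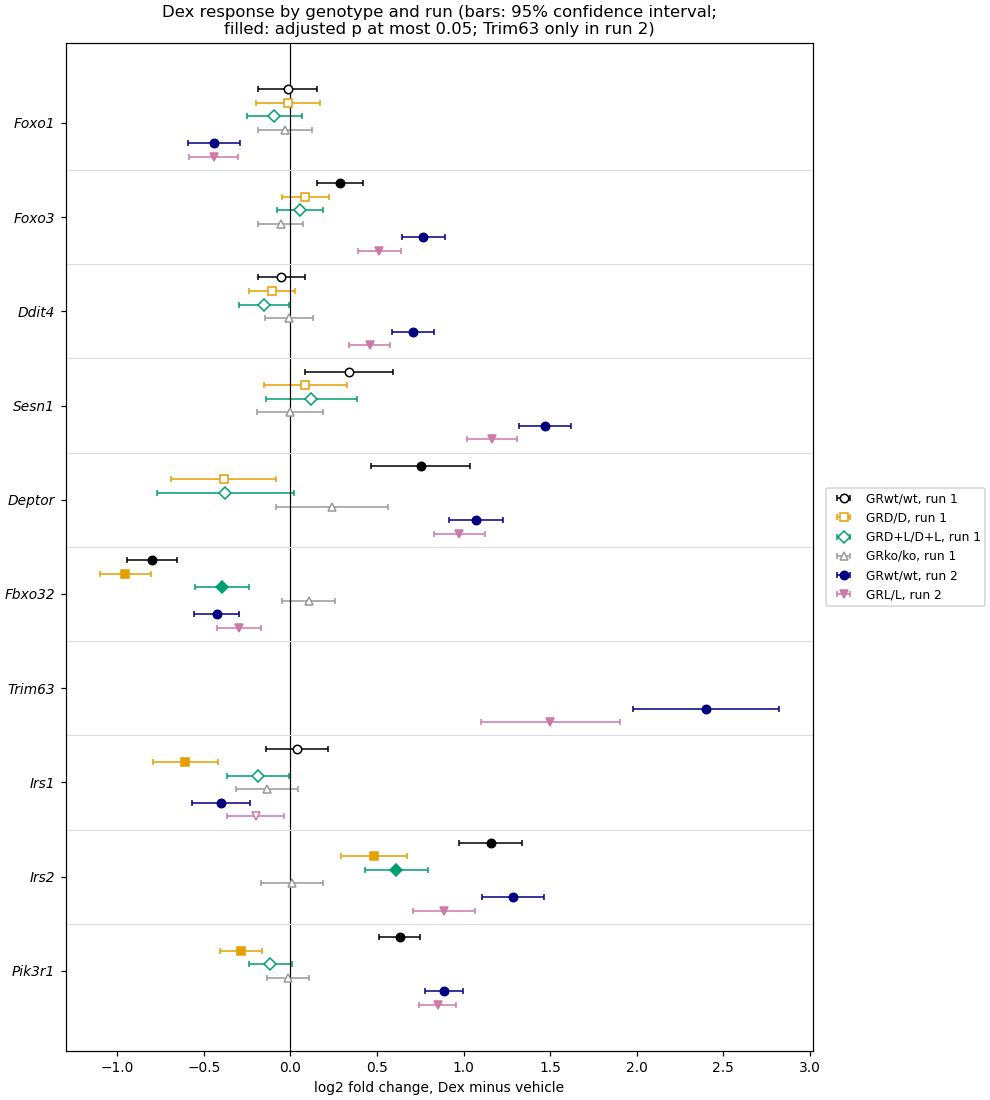
Log2 fold change of Dex over vehicle (horizontal axis) of each gene, by genotype and run; bars are 95% confidence intervals of the edgeR fit, filled symbols mark an adjusted p of at most 0.05, and Trim63 is drawn for run 2 only. Pik3r1 and Deptor lie to the right of 0 in GRwt/wt of both runs and in GRL/L, and to the left of 0 in GRD/D and GRD+L/D+L.

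The next comparison asked which of these responses depend on the form of the GR, by testing the Dex response of each mutant against GRwt/wt of the same run. The 3 mutants of run 1 share the same GRwt/wt libraries, so their differences are not independent of each other. In GRD/D, the responses of Pik3r1, Deptor, Irs2 and Irs1 were lower than in wild type. That made 4 called members, against 3.29% of all genes. The log2 difference was −0.91 for Pik3r1 (SE 0.08, adjusted p = 7.36e-10, edgeR), −1.14 for Deptor (SE 0.20, adjusted p = 3.07e-04), −0.68 for Irs2 (SE 0.13, adjusted p = 8.11e-04) and −0.65 for Irs1 (SE 0.13, adjusted p = 0.00106). Pik3r1 rose in GRwt/wt and fell in GRD/D, Irs2 rose in both, and Irs1 fell in GRD/D with no call in GRwt/wt. The fall of Fbxo32 was not shown to differ, with a difference of −0.15 (95% interval −0.36 to 0.05), nor was the response of Foxo3 (−0.20, −0.39 to −0.01, adjusted p = 0.383).

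In GRD+L/D+L, the log2 fold changes of Pik3r1, Deptor and Irs2 were lower and the fall of Fbxo32 was smaller than in GRwt/wt. These 4 called members compare with 3.23% of all genes. The log2 difference was −0.75 for Pik3r1 (SE 0.09, adjusted p = 7.69e-08, edgeR), −1.13 for Deptor (SE 0.24, adjusted p = 0.00259), −0.54 for Irs2 (SE 0.13, adjusted p = 0.00751) and 0.40 for Fbxo32 (SE 0.10, adjusted p = 0.0185). The Fbxo32 difference lost its call without any of 5 single libraries (GRD+L/D+L Dex 2 or vehicle 2, GRwt/wt Dex 1, vehicle 1 or vehicle 3, adjusted p from 0.0509 to 0.12), and that of Irs2 without GRwt/wt vehicle replicate 1 (adjusted p = 0.0543). In GRko/ko, 4 members were also called, against 8.48% of all genes. The log2 difference was 0.90 for Fbxo32 (SE 0.10, adjusted p = 2.56e-08), −1.15 for Irs2 (SE 0.13, adjusted p = 1.45e-08), −0.65 for Pik3r1 (SE 0.08, adjusted p = 4.19e-07) and −0.34 for Foxo3 (SE 0.09, adjusted p = 0.0136). The Foxo3 call was lost without GRko/ko Dex replicate 3 (adjusted p = 0.0707) or GRwt/wt Dex replicate 2 (adjusted p = 0.0768). The Deptor difference in GRko/ko was −0.51 (95% interval −0.95 to −0.08, adjusted p = 0.148). GRwt/wt of run 1 and both GRD+L/D+L and GRko/ko also differed in sex, and the 10 macrophage markers summed to 189 to 334 CPM in GRwt/wt, 687 to 820 in GRD/D, 30.5 to 40.5 in GRD+L/D+L and 2662 to 3134 in GRko/ko. The part of sex and of these cells in the differences was not tested.

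**Figure D3:**
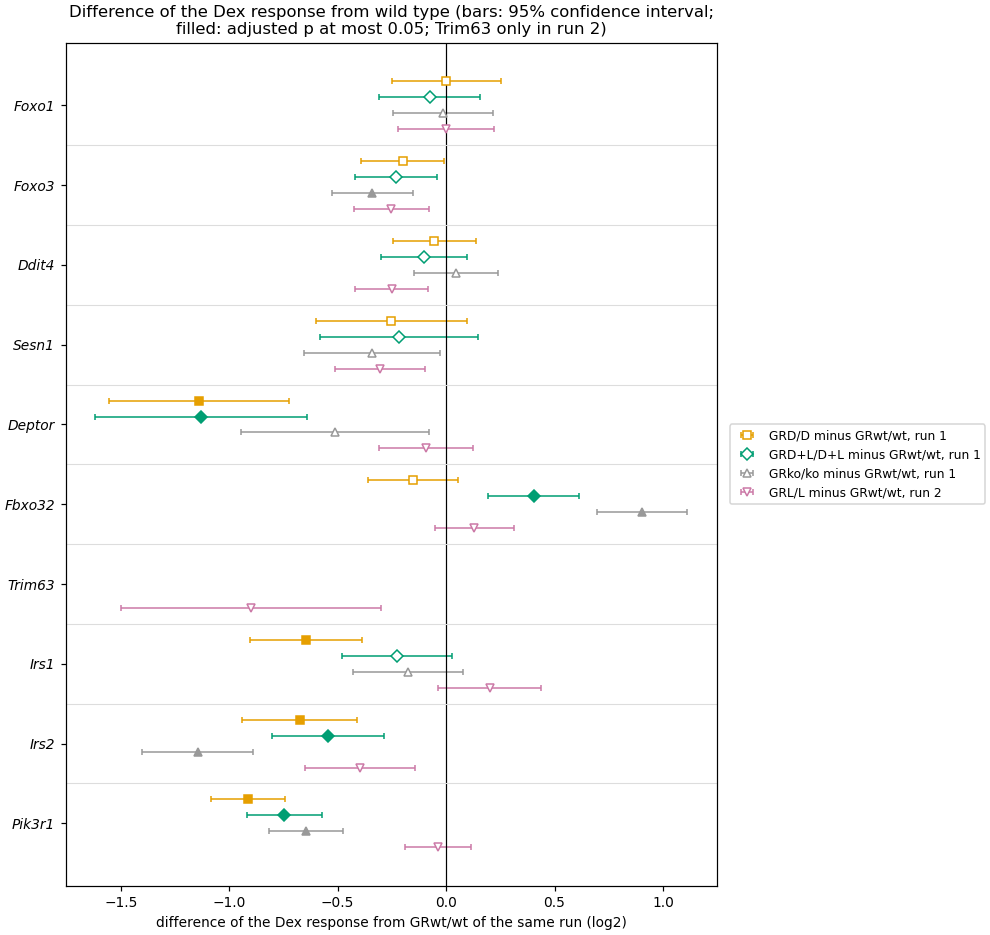
Difference of the log2 Dex response of each mutant from GRwt/wt of the same run (horizontal axis) by gene; bars are 95% confidence intervals of the edgeR interaction, filled symbols mark an adjusted p of at most 0.05, and Trim63 is drawn for run 2 only. The run 1 mutants lie to the left of 0 for Pik3r1, Deptor and Irs2, and GRko/ko lies to the right for Fbxo32, while no symbol of GRL/L is filled.

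The 9 members called in GRL/L moved in the same direction as in GRwt/wt of run 2, and the fold changes of Irs2, Sesn1, Trim63, Ddit4 and Foxo3 were smaller. No response of a member differed by the interaction test in edgeR, against 1.85% of all genes. The largest differences were −0.90 for Trim63 (95% interval −1.50 to −0.30, adjusted p = 0.131), −0.40 for Irs2 (−0.65 to −0.15, adjusted p = 0.1) and −0.31 for Sesn1 (−0.51 to −0.10, adjusted p = 0.136). Those of Ddit4 and Foxo3 were −0.25 each (−0.42 to −0.08 and −0.43 to −0.08). These 5 intervals do not include 0, so the genes are not shown to respond alike. The differences closest to 0 were those of Pik3r1 (−0.19 to 0.12) and Foxo1 (−0.22 to 0.22). Irs2 passed the test without GRwt/wt Dex replicate 4 (adjusted p = 0.0201) or without GRwt/wt vehicle replicate 6 (adjusted p = 0.0188), and Ddit4 without the latter (adjusted p = 0.0306).

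GRD+L/D+L and GRD/D, which differ by the ligand-binding domain mutation, were compared directly within run 1. Fbxo32 fell less in the double mutant, with a log2 difference of 0.56 (SE 0.11, adjusted p = 0.0384, edgeR). It was the 1 member called, against 0.0775% of all genes, or 12 genes. The call was lost in 9 of the 12 fits that left out a library (adjusted p from 0.0519 to 0.12). With vehicle, Fbxo32 was at 24.4 to 26.9 CPM in GRD+L/D+L and at 36.6 to 39.4 CPM in GRD/D, whereas with Dex the libraries of the double mutant (18.5 to 21.3 CPM) spanned those of GRD/D (19.7 to 19.8 CPM). Irs1 had a difference of 0.42 (95% interval 0.16 to 0.68, adjusted p = 0.219), and those of Irs2 and Pik3r1 were 0.13 (−0.13 to 0.40) and 0.17 (−0.01 to 0.34). The 2 genotypes also differed in sex. The 10 macrophage markers summed to 687 to 820 CPM in GRD/D and 30.5 to 40.5 CPM in GRD+L/D+L. The part of sex and of these cells in the difference was not tested.

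The same genotype gave different responses in the 2 runs. Of the 10 members, 7 differed between GRwt/wt of run 2 and of run 1, against 7.09% of all genes. Higher in run 2 were the log2 fold changes of Sesn1 (difference 1.13, SE 0.15, adjusted p = 6.28e-07, edgeR), Ddit4 (0.76, SE 0.09, adjusted p = 8.71e-08), Foxo3 (0.48, SE 0.09, adjusted p = 2.8e-04), Fbxo32 (0.37, SE 0.10, adjusted p = 0.00979) and Pik3r1 (0.25, SE 0.08, adjusted p = 0.043). Lower were those of Foxo1 (−0.43, SE 0.11, adjusted p = 0.0126) and Irs1 (−0.44, SE 0.12, adjusted p = 0.0184). Irs2 (0.13, 95% interval −0.13 to 0.39) and Deptor (0.32, −0.01 to 0.65) were not called. Leaving out a single library removed the call of Pik3r1 in 9 of 12 fits (adjusted p from 0.0602 to 0.143), of Irs1 in 4 (0.0527 to 0.0876), of Foxo1 in 3 (0.0572 to 0.0711) and of Fbxo32 without vehicle replicate 3 of run 1 (0.0555). Those of Sesn1, Ddit4 and Foxo3 stayed in all 12. Without Dex replicate 4 of run 2, 6 members were called, the Irs1 difference being −0.36 (adjusted p = 0.0702), and without vehicle replicate 6 also 6, the Pik3r1 difference being 0.26 (adjusted p = 0.0602).

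The runs also differed in the vehicle levels, in sex and in cell markers. In vehicle GRwt/wt, run 2 was at 4.69 times the run 1 level for Deptor, at 3.19 times for Sesn1, and at 0.626 (Irs2) to 1.38 (Pik3r1) times for the other members except Trim63. The adipocyte markers summed to 9.86 to 12.8 CPM in vehicle and 22.2 to 25.8 CPM in Dex libraries of GRwt/wt in run 1. In run 2 the sums were 65.1 to 69.5 CPM and 106 to 124 CPM in GRwt/wt, and 37.0 to 39.6 CPM and 58.0 to 61.5 CPM in GRL/L. Of the 7 markers tested, 1 was called up in GRwt/wt of run 1, and 2 up and 2 down in run 2. GRL/L had 2 up and 1 down, GRD/D 1 up and 1 down, and GRD+L/D+L 1 up. Some libraries had no count of Adipoq, Plin1 or Cidec. The part of sex, run and these cells in the difference was not tested, and sex and run cannot be told apart in GRwt/wt.

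Vehicle levels were compared next, to show where the mutants started from. In GRD/D, 2 members were called, against 9.55% of all genes. Foxo1 was lower, at 14.4 to 17.4 CPM against 20.5 to 23.2 CPM in GRwt/wt (log2 difference −0.46, SE 0.09, adjusted p = 2.91e-04, edgeR), and Pik3r1 was higher by 0.21 (SE 0.06, adjusted p = 0.0163). That of Pik3r1 was lost without GRD/D replicate 3 or GRwt/wt replicate 1 or 2 (adjusted p from 0.0575 to 0.0859). In GRD+L/D+L, 4 were called, against 29.9% of all genes, with Foxo1 higher (0.41, SE 0.08) and Ddit4 (−0.45, SE 0.07), Deptor (−0.55, SE 0.17) and Fbxo32 (−0.75, SE 0.07) lower. The Deptor call was lost without GRD+L/D+L replicate 2 (adjusted p = 0.0535) or GRwt/wt replicate 3 (0.0652). In GRL/L against GRwt/wt of run 2, 3 were called, against 11.3%, all of them higher, Foxo1 (0.36, SE 0.07), Deptor (0.47, SE 0.08) and Sesn1 (0.29, SE 0.08). The Sesn1 call was lost without GRwt/wt replicate 6 (adjusted p = 0.0637).

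GRko/ko MEFs differed most at baseline, with 7 members called, against 45.7% of all genes tested. Sesn1 was at 18.4, 17.0 and 18.8 CPM in vehicle GRko/ko against 6.36 to 8.29 CPM in GRwt/wt of run 1 (log2 difference 1.33, SE 0.11, adjusted p = 8.5e-13, edgeR). Fbxo32 was lower by a log2 difference of −0.98 (SE 0.07, adjusted p = 1.87e-14) and Ddit4 by −0.34 (SE 0.07, adjusted p = 7.53e-05). Foxo1 (0.47, SE 0.08), Foxo3 (0.40, SE 0.07) and Irs2 (0.51, SE 0.09) were higher. Trim63 was called higher, at 2, 2 and 6 counts against 0 in the 3 GRwt/wt libraries. Vehicle Fbxo32 in GRko/ko, at 21.0 to 22.4 CPM, lay below the 24.4 to 25.3 CPM of Dex-treated GRwt/wt. Strain, sex and the macrophage markers given above differ between these groups as well, and their part was not tested.

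Other genes of the same pathways were followed in lists of which every gene identifier was found. Of 24 tested genes of the insulin, PI3K and Akt list, 2 rose and 3 fell in GRwt/wt of run 1, 5 rose and 10 fell in run 2, 4 rose and 6 fell in GRL/L, 0 rose and 5 fell in GRD/D, 0 rose and 2 fell in GRD+L/D+L, and none was called in GRko/ko. These were 20.8%, 62.5%, 41.7%, 20.8% and 8.33% of the list in that order, beside 13.9%, 31.6%, 19.1%, 11.9% and 5.00% of all genes tested. The median log2 fold change of the list was −0.08 in GRwt/wt of run 2, against −0.011 over all genes. Pik3r3, another regulatory subunit of PI3K, fell by 1.07 on the log2 scale in run 2 (SE 0.07, adjusted p = 8.2e-16, edgeR) and by 0.57 in run 1 (SE 0.09, adjusted p = 1.21e-05). Grb14 fell in GRwt/wt of both runs, by 0.69 in run 2 and 0.42 in run 1. Grb10, an adaptor that inhibits the insulin receptor, rose in run 2 (0.45, SE 0.04, adjusted p = 1.48e-10) but was not called in run 1 (0.07, adjusted p = 0.395).

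Of 31 genes of the mTORC1 list, 4 rose and 1 fell in GRwt/wt of run 1, 5 rose and 6 fell in run 2, 1 rose and 3 fell in GRL/L, and 0 rose and 2 fell in each of GRD/D and GRD+L/D+L. The shares called, in the order GRwt/wt of run 1 and of run 2, GRL/L, GRD/D and GRD+L/D+L, were 16.1%, 35.5%, 12.9%, 6.45% and 6.45%. These lay near the shares of all genes given above, or below them in GRL/L and GRD/D. Sesn3, a sestrin like Sesn1, fell in all 5 sets with a GR protein, by 1.06 in GRwt/wt of run 2 (SE 0.07, adjusted p = 2.25e-15, edgeR), 0.58 in run 1, 0.61 in GRL/L, 0.48 in GRD/D and 0.28 in GRD+L/D+L. Eif4ebp1, which encodes the translation repressor 4E-BP1 that mTORC1 inactivates, rose by 0.40 in run 2 and 0.25 in run 1. Castor2 (−0.37) and Rheb (0.22) were called in GRwt/wt of run 2 and not in run 1 (log2 fold changes −0.21 and 0.07), and whether the runs differ is not given here.

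Of 22 tested FoxO targets and atrophy genes, 3 rose and 1 fell in GRwt/wt of run 1, 5 rose and 5 fell in run 2, 4 rose and 2 fell in GRL/L, 0 rose and 1 fell in GRD/D, and 1 rose and 0 fell in GRD+L/D+L. The shares called, in the same order, were 18.2%, 45.5%, 27.3%, 4.55% and 4.55%. Those of GRD/D and GRD+L/D+L rest on 1 gene each, beside 11.9% and 5.00% of all genes. Klf15, a transcription factor that glucocorticoids induce in muscle, rose by 1.70 in run 1 (SE 0.20, adjusted p = 2.87e-08, edgeR) and by 2.97 in run 2 (SE 0.11, adjusted p = 7.78e-22), from 1.33 ± 0.47 to 4.31 ± 0.58 CPM and from 2.93 ± 0.46 to 23.0 ± 0.87 CPM (SD, n = 3). Its log2 fold changes in GRD/D (0.45, adjusted p = 0.238) and GRD+L/D+L (0.69, adjusted p = 0.108) were not called. Bnip3, which acts in mitophagy, rose by 1.42 in run 2 and 0.39 in run 1, and Txnip rose by 0.33 and 0.19. Gadd45a fell by 0.88 in run 2 and by 0.70 in GRL/L, with −0.19 in run 1 (adjusted p = 0.368).

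Related genes of these pathways often moved apart. In GRwt/wt of run 2, Foxo3, Irs2, Pik3r1 and Sesn1 rose while Foxo1, Irs1, Pik3r3 and Sesn3 fell, and each of the 8 changes passed the test. In GRL/L the same held for 3 of the 4 pairs, and Irs1 (−0.20, adjusted p = 0.0845) was the exception. In GRwt/wt of run 1 it held for Pik3r1 and Pik3r3 alone, since Foxo1, Irs1 and Sesn1 were not called. In GRD/D, Irs2 rose and Irs1 fell, whereas Pik3r1 and Pik3r3 both fell. These pairs were chosen after their values had been seen.

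**Figure D4:**
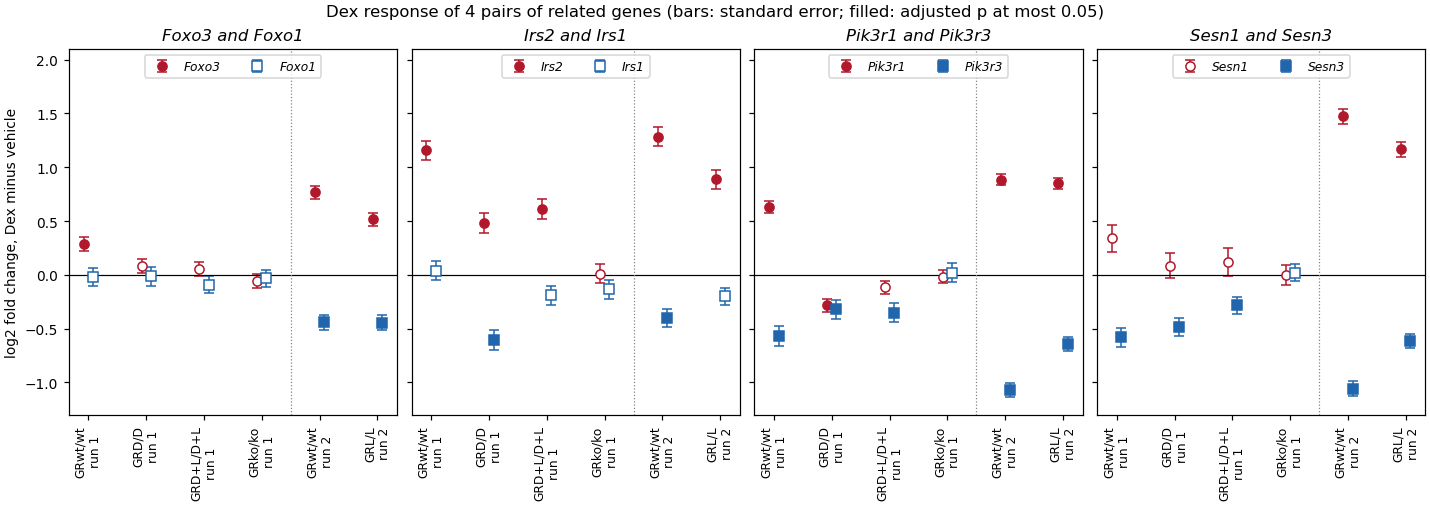
Log2 fold change of Dex over vehicle (vertical axis) for 4 pairs of related genes, by genotype and run; bars are standard errors, filled symbols mark an adjusted p of at most 0.05, and the dotted line separates the runs. In GRwt/wt of run 2, the gene drawn in red is above 0 and the gene drawn in blue below 0 in every pair, with Sesn1 at 1.47 and Sesn3 at −1.06.

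For members called in both runs of GRwt/wt, the genes with the most similar pattern over the 36 libraries were sought by Pearson's correlation of log2 CPM, with each run centred on its own mean. The libraries share genotype and treatment groups, so the values are a description. Irs2 was most like Spsb1 (0.94), Sdc4 (0.94) and Ablim1 (0.94), and Pik3r1 most like Zbtb16 (0.93), Dpf1 (0.92) and Rasa3 (0.92). Foxo3 was most like Clic4 (0.91), Dcbld2 (0.90) and Edn1 (0.88), and the first 2 of these also led for Trim63 (0.85 and 0.84). For Fbxo32 they were Chst2 (0.86), Nabp1 (0.85) and Twist2 (0.84), and for Deptor Crispld2 (0.85), Ddx3x (0.85) and Dennd4a (0.84).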

How the data were processed

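The deposited table holds raw read counts per gene, which the authors made from TruSeq libraries of total RNA with HISAT2 2.1.0 on mm10, keeping uniquely mapped reads, and featureCounts 2.0.0 (tools and versions from the submitters' processing notes, which also list FastQC and DESeq2). The annotation and strand setting are not given in the sources used here. Of the members, 5 overlap an opposite-strand gene in exons (Foxo1 674, Deptor 303, Fbxo32 186, Irs1 2822 and Irs2 162 bases in GENCODE on GRCm38). All columns were mapped by their names. Groups, replicates and runs came from the sample labels. The design text says that the cultures came from different mice, which was not tested.

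All 36 libraries were fitted together with edgeR 4.0.16 (limma 3.58.1, R 4.3.3): TMM scaling, filterByExpr on the 12 groups (15489 genes), quasi-likelihood tests with Benjamini-Hochberg adjustment, called at 0.05. CPM are counts scaled to the TMM library size. Standard errors are the log2 fold change over the root of F and are approximate, and intervals are 95%. The procedure was tested on simulated data. All members are named in each comparison. Of each pathway list, the genes named are up to 4 with the smallest adjusted p for Dex in GRwt/wt, and of the similar genes the 3 highest; 2 genes under these rules are not reported here. The members and lists were chosen with earlier results of these data known. Replicate numbers did not pair the libraries: the correlation of same-numbered vehicle and Dex libraries was −0.079 to 0.12 over 18 pairs, and over 0.1 in 1. Replicates of a group were not copies, with a mean chi-square of 1.62 to 29.4 times the sampling noise over 36 pairs. The alternatives were DESeq2 1.42.0, its size factors, no filter, at least 10 counts in every library, each run alone, each library left out, GRwt/wt pooled over runs as in the study's formula, a replicate block, and a fold limit. Figures were drawn with matplotlib 3.10.9.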

Additional observations from a re-analysis of the deposited data

Results flagged for a closer look

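For 20 responses of the members, the interaction test of edgeR found a difference between genotypes or between runs (adjusted p of at most 0.05), which calls for a closer look. The values below are differences of the log2 Dex response. In GRD/D against GRwt/wt of run 1 they were −1.14 for Deptor, −0.65 for Irs1, −0.68 for Irs2 and −0.91 for Pik3r1. For GRD+L/D+L they were −1.13 for Deptor, 0.40 for Fbxo32, −0.54 for Irs2 and −0.75 for Pik3r1. For GRko/ko they were −0.34 for Foxo3, 0.90 for Fbxo32, −1.15 for Irs2 and −0.65 for Pik3r1. GRD+L/D+L and GRD/D differed from each other in Fbxo32 by 0.56.

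Between the 2 runs of GRwt/wt (run 2 minus run 1), the response differed by −0.43 for Foxo1, 0.48 for Foxo3, 0.76 for Ddit4, 1.13 for Sesn1, 0.37 for Fbxo32, −0.44 for Irs1 and 0.25 for Pik3r1. The Sesn1 response differed from GRwt/wt of the same run by −0.34 to −0.22 in the run 1 mutants, none of it called. Groups of 3 libraries are too small for a test of single outlying libraries.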

How the results depend on the processing

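Pooling GRwt/wt over the runs, as in the study's formula, had the widest effect. It called 10 members in wild type, where run 1 alone gave 6, and turned Ddit4 (log2 fold change 0.37) and Irs1 (−0.19) against their run 1 signs. The members called for the response difference became 8 in GRD/D and 7 in GRko/ko. Over all genes it gave 5207 calls in wild type, and 1105, 1227, 2310 and 115 for the response differences of GRD/D, GRD+L/D+L, GRko/ko and GRL/L. A fold limit of 1 left 2 members in GRwt/wt of run 1, 4 in run 2, 2 in GRL/L, 0 in GRD/D and 0 in GRD+L/D+L. Without a filter on low counts, Irs2 became the 1 member called for GRL/L minus GRwt/wt, the comparison of GRD+L/D+L with GRD/D called 2 members and 87 genes, and GRko/ko 110 genes. That comparison of the double mutant called 0 members and 0 genes with the size factors of DESeq2, 0 members and 2 genes with run 1 alone, and 58 genes in DESeq2, against 12. DESeq2 called 1 gene in GRko/ko. With the culture number as a replicate block, the paired fit called 0 members and 2 genes for that same comparison and added Sesn1 in GRwt/wt of run 1 (adjusted p = 0.0193), and it changed no other call of a member. The cause of these shifts was not tested.

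Leaving out 1 library gave 5 to 7 members in GRwt/wt of run 1, 10 in run 2, 4 in GRD/D, 9 in GRL/L, 2 in GRD+L/D+L and 0 in GRko/ko. For the response differences it gave 4 in GRD/D, 2 to 4 in GRD+L/D+L, 3 to 5 in GRko/ko, 0 to 2 in GRL/L, 0 to 1 between GRD+L/D+L and GRD/D, and 4 to 7 between runs. For vehicle levels it gave 1 to 2 members in GRD/D, 3 to 5 in GRD+L/D+L, 7 in GRko/ko and 2 to 3 in GRL/L. All-gene counts that moved by over 1.5 times were those of GRD/D (1129 without Dex replicate 2), GRko/ko (0 to 6), the difference of GRL/L (190 without GRwt/wt vehicle replicate 5) and of GRD+L/D+L from GRD/D (0 to 21), and the vehicle levels of GRD/D (934 without GRwt/wt replicate 3) and GRL/L (1170 without GRL/L replicate 1). Of 67 member results called, 5 of 416 values lost the call under other settings and 43 of 522 with a library left out, none with a change of sign. Of 93 member results not called, 22 of 561 values gained a call under other settings, and 2 more were called with the opposite sign. With a library left out, 8 of 798 values gained a call. With at least 10 counts in every library, Trim63 gave no value. Trim63 in run 1 had 0 to 6 counts per library.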
